A study of Sus scrofa with 21 samples.

Results

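The interferon response in porcine testis was followed through 9 named genes, of which 7 had a row among the 25880 genes counted in each library. They were named with earlier results of these data known, and their rows were then found by identifier. CXCL10, a chemokine, and TNFSF10 (TRAIL), a death ligand, are signals to other cells, and the other 5 act inside the cell against viruses, ISG15, MX1, MX2, IFIT1 and OAS2. OAS1 and IFIT3 were the other two named genes and were not analysed here, because the identifiers given for them matched no row.

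Interferons bind receptors on the cell surface and act through JAK kinases and transcription factors that switch on a large group of interferon-stimulated genes. Interferon gamma, mainly a product of T cells and natural killer cells, induces the chemokines CXCL9, CXCL10 and CXCL11, which draw in T cells through the receptor CXCR3, as well as the antigen presentation genes. In the testis, where immune responses are normally held down, Sertoli cells, Leydig cells and resident macrophages can all express interferon-stimulated genes. TRAIL binds death receptors and can start apoptosis.

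Testis tissue collected at slaughter from 21 boars used for artificial insemination was sequenced with 1 library per boar, 13 Landrace and 8 Duroc. Sperm hyperactivity is the vigorous swimming pattern that sperm need for fertilization. In contrast (i), 4 Landrace boars with high hyperactivity on the day of ejaculation (day 0; L5, L6, L7 and L8) were set against 4 with low hyperactivity (L1, L2, L3 and L4). In contrast (iii), 3 Landrace boars (L7, L13 and L15) whose hyperactivity changed much during 96 h of semen storage were set against 4 in which it changed little (L2, L9, L10 and L12), so that L2 and L7 are in both contrasts. In contrast (ii), 5 Duroc boars labelled high at day 0 (D1 to D5) were set against 3 labelled low (D6, D7 and D9), by the deposited labels. The study's own table of boars numbers the Duroc boars differently, since the deposited D2 and D3 hold more counted reads than the reads it lists under those numbers, and it was not used to group them. The breeds were also compared over all 21 boars. No treatment was given, and the labels do not give the age of the boars.

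The libraries held 41358671 to 125576407 counted reads on genes, with a median of 58530621. Values are given as raw counts or as CPM, the counts divided by library size with TMM scaling factors, and levels were not compared between genes, since gene lengths were not at hand. Germ cell markers were abundant, with a summed level of 6690 to 13500 CPM over 8 markers in Landrace and 10500 to 12600 CPM in Duroc. The Sertoli cell marker AMH had 0 counts in every library, as did the B cell marker CD79B in all but 3 libraries. In whole tissue, fewer cells of a type and less RNA per cell cannot be told apart. L13 had a macrophage marker sum of 226 CPM and L8 a peritubular marker sum of 17.1 CPM, the highest and the lowest among the Landrace boars. MRC1 made up 207 CPM of that macrophage sum, and 112 of 130 CPM in D7, so the macrophage sums largely reflect 1 gene. D7 was the highest Duroc boar for all 7 genes.

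By RefSeq gene coordinates on Sscrofa11.1, matched by symbol, CXCL10 lies on chr8:71693641-71695948, ISG15 on chr6:63363201-63364211 and TNFSF10 on chr13:111021952-111103060. MX2 on chr13:204798633-204821612 and MX1 on chr13:204843049-204868927 are neighbours and related in sequence, as are IFIT1 on chr14:101237403-101249486 and IFIT3, and OAS2 on chr14:38827667-38847697 and OAS1. Reads shared between such relatives could be split or lost in counting, so single members of these pairs are less certain. The row used for TNFSF10, ENSSSCG00000020906, carries that name in the study's gene tables, whereas the identifier table gives it the name of the neighbouring gene GHSR, and the name is therefore uncertain.

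CXCL10 was a low-count gene that varied strongly between boars. In the 13 Landrace libraries it ranged from 11 counts in L9 to 230 in L13, with a median of 50, or from 0.199 to 2.71 CPM with a median of 0.849. In the Duroc libraries it had 51 counts in D1, 90 in D2, 182 in D3, 44 in D4, 114 in D5, 21 in D6 and 74 in D9, against 1231 in D7. D7 thus stood at 19.6 CPM, whereas the other 7 Duroc boars lay between 0.408 and 1.97 CPM. CXCL10 reached 1 TMM-scaled CPM in 5 of 13 Landrace and 6 of 8 Duroc boars and passed the filter (1 CPM or more, before TMM scaling, in 50% or more of the libraries compared) only in contrast (ii) and in the test of the difference between breeds.

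TNFSF10 was above 1 CPM in every library. Landrace boars ranged from 1.67 CPM in L8 to 12.4 in L7 with a median of 3.75, and Duroc boars from 2.33 in D6 to 7.90 in D7 with a median of 4.69. L7, with 1156 counts, and L13, with 836, were far above the remaining 11 Landrace boars, none of which passed 5.08 CPM.

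Among the intracellular effectors, OAS2, which makes the oligoadenylates that activate RNase L, ranged from 7.27 to 14.3 CPM in Landrace with a median of 10.6 and from 11.2 to 28.7 CPM in Duroc with a median of 14.5. The dynamin-like GTPase MX1 ranged from 0.584 to 2.41 CPM in Landrace and from 0.613 to 4.42 in Duroc, and its relative MX2 from 0.653 to 1.84 and from 1.17 to 5.19. IFIT1, which binds foreign RNA ends, ranged from 0.742 to 4.35 CPM in Landrace and from 0.875 to 10.8 in Duroc. The ranges of the breeds overlapped for each of these genes.

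The ubiquitin-like modifier ISG15 was barely detected, with 0 to 9 counts in Landrace and 1 to 7 counts in 7 Duroc boars against 38 in D7. L8 had 0 counts of ISG15, which allows up to 3 counts or 0.0365 CPM, counting error only. ISG15 never passed the filter. It and CXCL10, where CXCL10 failed, were therefore fitted together with all genes that had at least 1 count.

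**Figure D1:**
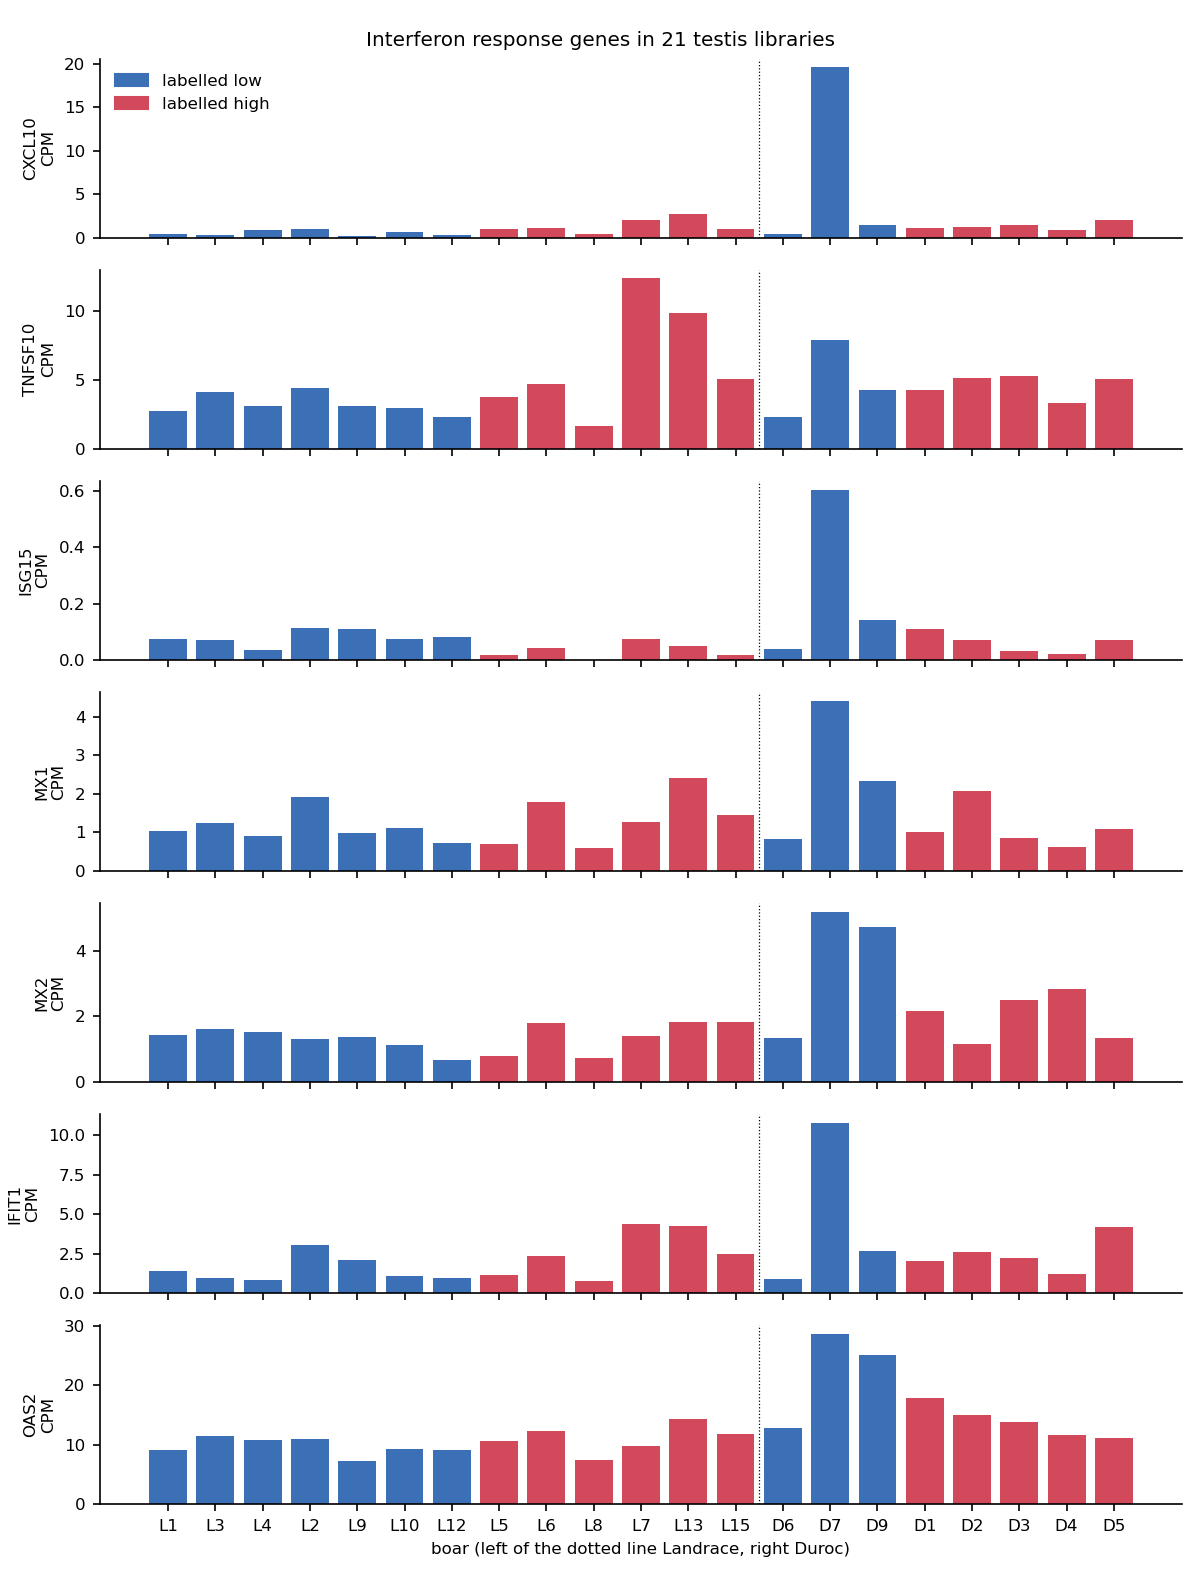
TMM-scaled CPM of the 7 genes in each of the 21 boars, 1 panel per gene with its own linear axis from 0, coloured by the hyperactivity label. D7 is the tallest Duroc bar in every panel, at 19.6 CPM for CXCL10, and L7 and L13 are the tallest Landrace bars for TNFSF10.

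Contrast (i) asked whether the genes differ in testes of Landrace boars with high and low hyperactivity at day 0, and none of the 7 did so beyond the spread between boars. CXCL10 had 20, 77, 27 and 50 counts in the low boars L1, L2, L3 and L4 and 63, 75, 183 and 34 in the high boars L5, L6, L7 and L8. TNFSF10 had 2.71, 4.41, 4.12 and 3.09 CPM in the same low boars and 3.75, 4.70, 12.4 and 1.67 CPM in the high boars. L7 was above every low boar for both ligands, whereas L8 was below every low boar for TNFSF10 and among them for CXCL10, so the groups overlapped.

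The log2 fold change of high over low was 0.91 ± 0.48 (SE) for CXCL10 (quasi-likelihood test, adjusted p = 0.198) and 0.69 ± 0.49 for TNFSF10 (adjusted p = 0.29). In exact permutation tests of CPM, two-sided over all 70 assignments of the boars, p was 0.143 for CXCL10 and 0.629 for TNFSF10, where 0.0286 is the smallest p that 4 against 4 allow. The TNFSF10 value rested on L7, since without that boar it was -0.08. The CXCL10 value fell to 0.44 without L7.

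The effectors gave values of mixed sign. The log2 fold change was 0.49 ± 0.56 for IFIT1, -0.06 ± 0.19 for OAS2, -0.22 ± 0.40 for MX1, -0.30 ± 0.33 for MX2 and -0.99 ± 0.94 for ISG15, and the quasi-likelihood adjusted p ranged from 0.483 to 0.831. MX1 turned sign without L2 or L8, at 0.02 and 0.01, OAS2 without L8, at 0.08, and IFIT1 without L7, at -0.15. Of the 5 genes that passed the filter, 0 were called and 0 had groups that did not overlap, while of all 12979 genes tested 20.7% were called and 28.1% had groups that did not overlap.

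Few other genes of the pathway were called in contrast (i), where 20.7% of all tested genes were (626 higher and 2056 lower in the high group). Of 14 tested genes of interferon signalling, 0 rose and 1 fell. This was IRF7, the transcription factor that amplifies type I interferon production, at 1.38 ± 0.25 CPM in the low and 0.43 ± 0.15 in the high group (SD, n = 4 each; log2 fold change -1.65 ± 0.34, quasi-likelihood adjusted p = 0.0208). IRF7 passed the filter only through the low group, and over genes with at least 1 count its fold change was -1.59 (quasi-likelihood adjusted p = 0.0154). Of 9 nucleic acid sensing genes, 0 rose and DHX58 (LGP2, a cytoplasmic RNA sensor) fell, from 14.4 ± 2.48 to 5.96 ± 2.09 CPM (log2 fold change -1.24 ± 0.27, quasi-likelihood adjusted p = 0.0208). Neither gene's groups overlapped.

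Of 20 other interferon-stimulated genes, HERC6 rose, by 0.53 ± 0.17 on the log2 scale (quasi-likelihood adjusted p = 0.0478), and 0 fell. None of 11 interferon gamma and antigen presentation genes was called, the smallest p being that of the GTPase GBP1 (log2 fold change -0.62 ± 0.22, quasi-likelihood adjusted p = 0.0607), whose groups did not overlap. The median log2 fold change was 0.09 for signalling, -0.33 for sensing, 0.29 for other stimulated genes, -0.44 for interferon gamma genes and 0.22 for the death pathway, beside 0.04 over all tested genes.

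Whether these genes passed the threshold depended on the boar left out, but their fold changes kept their sign. With 1 boar left out they ran from -1.9 to -1.5 for IRF7, -1.46 to -1.1 for DHX58 and 0.427 to 0.647 for HERC6. Without L6, 1 gene in all was called in contrast (i), and the quasi-likelihood adjusted p rose to 0.0546 for IRF7 and DHX58 and 0.105 for HERC6. HERC6 was also lost without L1, L2, L3, L4 or L5, at an adjusted p of 0.0758 to 0.141.

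Cell type markers moved in the same boars. The summed level of 10 leukocyte markers was 13.6 to 16.1 CPM in the low group and from 9.83 CPM upward in the high group, where every boar was below every low boar, and CD4, of T helper cells, fell by 1.36 ± 0.36 on the log2 scale (quasi-likelihood adjusted p = 0.0283), the only one of 4 tested. The complement gene C1QC of macrophages, 1 of 4 tested, fell by 1.14 ± 0.30 (adjusted p = 0.027), while the macrophage sum was 73.7 to 106 CPM in the low and 84.4 to 135 in the high group. Of 4 peritubular markers the muscle genes DES, from 7.98 ± 2.06 to 2.76 ± 1.32 CPM, and MYH11, from 29.4 ± 11.7 to 12.8 ± 5.89 CPM, fell (quasi-likelihood adjusted p = 0.0255 and 0.0392), and the sum was 49.1 to 111 CPM in the low and 17.1 to 61.2 in the high group.

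Of 8 germ cell markers, ACR and PRM1, both of late germ cells, fell and DDX4, of earlier germ cells, rose (log2 fold changes -1.05 ± 0.18, -0.70 ± 0.20 and 0.52 ± 0.16, quasi-likelihood adjusted p = 0.0208, 0.0338 and 0.045). Whether the markers passed the threshold depended on the boar left out too, while their fold changes kept their sign. They ran from -1.18 to -0.934 for ACR, the call lost least often, and from 0.376 to 0.595 for DDX4, the call lost most often. With 1 boar left out, DDX4 was lost in 7 of 8 cases, MYH11 in 5, CD4 in 4, PRM1 and C1QC in 3, DES in 2 and ACR in 1, at quasi-likelihood adjusted p-values up to 0.143. No Leydig, Sertoli or endothelial marker was called, of 6, 5 and 4 tested. The sum was 1750 to 2200 CPM in the low and 592 to 4550 in the high group for Leydig markers, 186 to 233 and 181 to 250 for Sertoli markers, and 23.9 to 41.3 and 11.3 to 36.6 for endothelial markers. The part of these cell types in the levels of the interferon genes was not tested.

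In contrast (iii), on the change in hyperactivity over 96 h, both ligands were higher in every high-change boar than in any low-change boar. Neither passed the adjusted quasi-likelihood test. The authors reported both as differentially expressed in this contrast from the same libraries, with CXCL10 lower in the high-change group. The separation of the 2 ligands here is therefore not an independent observation. CXCL10 had 77 counts in L2, 11 in L9, 33 in L10 and 12 in L12, against 183 in L7, 230 in L13 and 60 in L15. In CPM these were 0.967, 0.199, 0.602 and 0.245 in the low and 1.97, 2.71 and 1.02 in the high boars. The gap between L2 and L15 was narrow.

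The mean of CXCL10 was 0.50 ± 0.36 CPM in the low (SD, n = 4) and 1.90 ± 0.85 in the high group (n = 3), a log2 fold change of 1.90 ± 0.51 (quasi-likelihood test over genes with at least 1 count, unadjusted p = 0.00209, adjusted p = 0.256). DESeq2 gave an adjusted p of 0.038. The exact permutation p was 0.0286, the smallest that 3 boars against 4 allow.

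TNFSF10 had 4.41 CPM in L2, 3.11 in L9, 2.97 in L10 and 2.29 in L12, against 12.4 in L7, 9.86 in L13 and 5.08 in L15. The mean was 3.20 ± 0.89 CPM in the low and 9.12 ± 3.73 in the high group, a log2 fold change of 1.51 ± 0.33 (quasi-likelihood test, unadjusted p = 9.298e-04, adjusted p = 0.24). The call depended on the test, since the likelihood ratio test gave an adjusted p of 0.0157 and DESeq2 one of 0.00714. The exact permutation p was again 0.0286. With each boar left out in turn the fold change ran from 1.21 to 1.80 for TNFSF10 and from 1.59 to 2.44 for CXCL10, above 0 each time, while the quasi-likelihood adjusted p ran from 0.106 to 0.606 and from 0.0746 to 0.603.

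**Figure D2:**
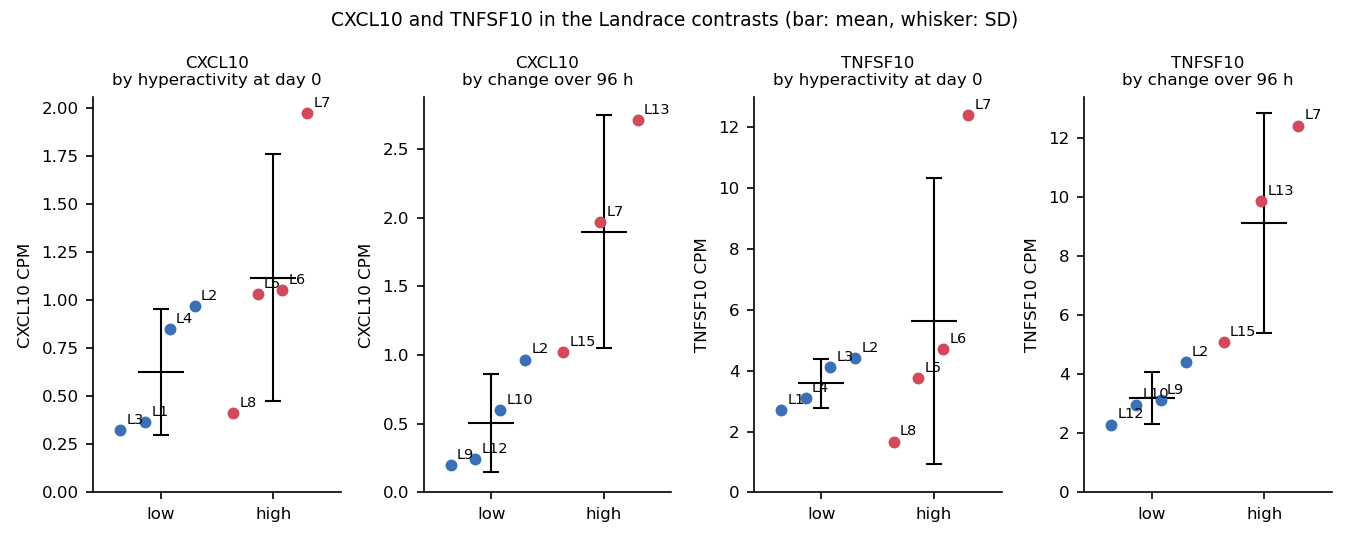
TMM-scaled CPM of CXCL10 and TNFSF10 in each Landrace boar of contrasts (i) and (iii), with the group mean (bar) and SD (whisker), axes from 0. The high and low groups overlap at day 0, whereas for the change over 96 h the lowest high boar, L15 with 1.02 CPM of CXCL10 and 5.08 of TNFSF10, lies just above the highest low boar, L2 with 0.967 and 4.41.

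MX2 also had groups that did not overlap in contrast (iii), at 0.653 to 1.36 CPM in the low and 1.40 to 1.84 in the other, and its log2 fold change was 0.59 ± 0.32 (quasi-likelihood adjusted p = 0.305, exact permutation p = 0.0286). The fold change was 1.03 ± 0.42 for IFIT1, 0.53 ± 0.38 for MX1 and 0.39 ± 0.21 for OAS2 (adjusted p = 0.243, 0.418 and 0.299), and their groups overlapped. ISG15 had 4 to 9 counts in the low and 1 to 7 in the other, a fold change of -0.94 ± 0.78 and thus the opposite sign. Of the 5 genes that passed the filter 2, TNFSF10 and MX2, had groups that did not overlap, beside 16.2% of all genes tested.

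In contrast (iii) edgeR's quasi-likelihood test called 0 of 12824 genes (0%), although 2540 had an unadjusted p under 0.05, and the likelihood ratio test called 64 and DESeq2 116. No pathway list therefore held a called gene. The median log2 fold change was 0.59 for the 5 tested genes, 0.49 for 12 signalling genes, 0.41 for 9 sensing genes, 0.29 for 19 other stimulated genes, 0.61 for 11 interferon gamma and antigen presentation genes and 0.11 for 10 death pathway genes, beside 0.00 over all tested genes. The smallest p in the lists of sensing, other stimulated and interferon gamma genes belonged to DHX58 (-0.80 ± 0.22), SAMD9 (0.84 ± 0.19) and the MHC class I light chain B2M (1.37 ± 0.34), each at an adjusted p of 0.24. DHX58 had the opposite sign to the other two.

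L13 had high levels of several marker genes in this contrast. The sum was 71.4 to 106 CPM in the low and 67.3 to 226 in the high group for macrophage markers, 201 to 232 and 202 to 491 for Sertoli markers, 10300 to 13500 and 6690 to 11500 for germ cell markers, and 11.7 to 16.1 and 10.2 to 17.2 for leukocyte markers. For endothelial markers it was 22.6 to 39.9 and 36.6 to 46.0 CPM, for Leydig markers 609 to 2200 and 1490 to 2540, and for peritubular markers 41.6 to 89.7 and 58.2 to 61.2. No marker was called, the smallest p in each list being that of PTPRC, CD163, KDR, HSD17B3, CLDN11, DES and PRM1. Without L13 the fold change was 1.59 for CXCL10 and 1.47 for TNFSF10. The germ cell sum was also low in L15, at 7610 CPM, beside 6690 in L13 and 11500 in L7. The part of these cell types in the levels of both ligands was not tested.

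In contrast (ii) no gene was called (0% of 13043 tested by edgeR's quasi-likelihood test, with 158 at an unadjusted p under 0.05). CXCL10 averaged 7.18 ± 10.8 CPM in the 3 boars labelled low and 1.33 ± 0.42 in the 5 labelled high, a log2 fold change of -2.44 ± 0.86 (unadjusted p = 0.0157, adjusted p = 1.0). The values of the low boars were 21 counts in D6, 1231 in D7 and 74 in D9, so a single boar set the mean. Without D7 the fold change of CXCL10 was 0.48, that of IFIT1 turned from -0.97 to 0.47 and that of TNFSF10 from -0.06 to 0.49. TNFSF10 also turned sign without D4, at 0.04.

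The remaining effectors were lower in the boars labelled high with or without D7, at -1.17 for MX1, -0.90 for MX2, -0.67 for OAS2 and -2.20 for ISG15 with it and -0.48, -0.59, -0.44 and -0.62 without it, and the exact permutation p over 56 assignments ranged from 0.0714 to 0.143 for these 4 genes. Of the 6 genes that passed the filter 0 had groups that did not overlap, beside 1.41% of genes tested. No gene of the pathway or marker lists was called. The sum of germ cell markers was 10500 to 10700 CPM in the boars labelled low and 11200 to 12600 in those labelled high, and its part in these values was not tested. The smallest p among the interferon lists was that of CXCL9, at 15.3 CPM in D7 and 0.875 to 1.75 CPM in the other 7 Duroc boars (log2 fold change -2.07 ± 0.77, adjusted p = 1.0), and in the signalling, sensing and other stimulated lists that of IFNAR1, TBK1 and CMPK2.

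D7 stood apart within its breed for the 7 genes. Over all 12835 tested genes it was highest for 524 and lowest for 1070, with a median log2 ratio of -0.05. All 7 genes were highest in D7 among the 8 Duroc boars, as were 5 of the 5 that passed the filter over all libraries, beside 4.08% of the 12835 genes tested. Against the median of the other 7 boars the ratio was 15.9 for CXCL10, 8.83 for ISG15 (38 counts), 4.84 for IFIT1, 4.43 for MX1, 2.38 for MX2, 2.07 for OAS2 and 1.84 for TNFSF10. D7 was picked out from these values, which are given as a description.

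Genes of the interferon lists that are not among the 7 showed where D7 was high, and the following were named after their values were seen. CXCL9 stood at 15.3 CPM against a median of 1.18 in the other Duroc boars, RSAD2 (viperin) at 9.71 times their median and IFIT2 at 4.49 times. CXCL11 had 83 counts in D7, 1 in D5 and 0 in the other 6 Duroc boars, and IDO1, a tryptophan-degrading enzyme induced by interferon gamma, had 17 counts in D7 and at most 4 in any other Duroc boar. The lists as a whole were less far out, with D7 highest for 2 of 12 tested signalling genes, 1 of 9 sensing genes, 4 of 19 other stimulated genes, 3 of 11 interferon gamma genes and 2 of 10 death pathway genes. The median log2 ratio was 1.22 for the 5 tested genes but 0.06, -0.11, 0.22, 0.18 and 0.02 for these lists, beside -0.05 over all tested genes.

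Some leukocyte markers were highest in D7, 1 of the 3 that passed the filter, although the median log2 ratio of these 3 was 0.07 and the sum of 10 markers, 15.9 CPM, was within the range of the Duroc boars labelled high (9.11 to 17.0). The common leukocyte antigen PTPRC was at 7.08 CPM, against 2.22 to 5.48 in the other 7 Duroc boars. The T cell receptor genes CD3D and CD3E had 43 and 36 counts, at 0.686 and 0.574 CPM against at most 0.643 and 0.345. CD8A was also highest in D7, at 0.447 CPM. CD2 was not, at 4.72 CPM against 3.36 to 5.44, nor were CD4, at 0.973 against 0.906 to 4.53, and NKG7. CXCR3 and CD79B had 0 counts in D7. The macrophage receptor MRC1 was at 112 CPM against 52.9 to 104. It made up most of the sum of 9 macrophage markers, 130 CPM, which was the highest of the Duroc boars. Of the 4 macrophage markers that passed the filter, 1 was highest in D7, with a median log2 ratio of 0.24. CD68 and C1QC stood at 0.813 and 0.916 times the median of the other boars, and CD14 had 0 counts. Leydig and peritubular markers had median log2 ratios of -0.54 and -0.79, endothelial markers -0.65, Sertoli markers 0.11 and germ cell markers -0.05. The part of these cells in the CXCL10 level of D7 was not tested.

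**Figure D3:**
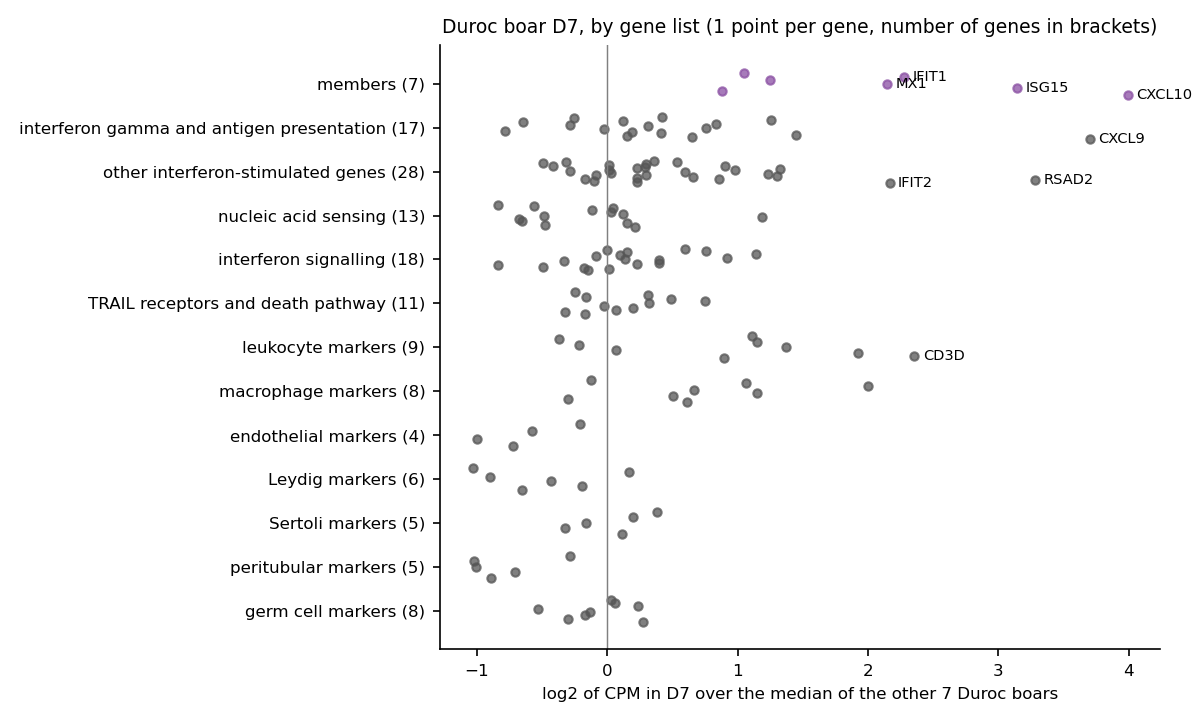
Log2 of the CPM in Duroc boar D7 over the median of the other 7 Duroc boars, with 1 point per gene and 1 line per gene list (genes with more than 3 counts in the median of the others). The 7 interferon response genes all lie to the right of 0, up to the 15.9-fold ratio of CXCL10, and CXCL9 and RSAD2 stand apart from their lists in the same direction. Most leukocyte and macrophage markers also lie to the right of 0.

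Among Landrace boars the extremes were spread over more animals. L13 was the highest of the 13 for CXCL10, MX1 and OAS2, that is for 2 of the 5 genes that passed the filter, beside 21.7% of all genes tested. L7 was the highest for TNFSF10 and IFIT1, L2 for ISG15 and L15 for MX2. L8 was the lowest for TNFSF10, ISG15, MX1 and IFIT1, 3 of the 5 that passed, beside 21.7% of all genes tested. In L8 the 4 tested endothelial and 4 tested peritubular markers were also the lowest of the 13, as were 9 of 11 interferon gamma and antigen presentation genes.

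Between the breeds, OAS2 and MX2 were higher in Duroc. OAS2 averaged 10.3 ± 1.97 CPM in Landrace (SD, n = 13) and 17.0 ± 6.53 in Duroc (n = 8), a log2 fold change of 0.72 ± 0.17 (quasi-likelihood adjusted p = 0.0159, permutation p = 4.32e-04 over 203490 exact assignments). MX2 averaged 1.34 ± 0.41 and 2.66 ± 1.54 CPM, a log2 fold change of 0.99 ± 0.27 (quasi-likelihood adjusted p = 0.0466, exact permutation p = 0.00339). These are 2 of the 5 genes that passed the filter, and 2.77% of all 12835 genes tested were called.

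The OAS2 call was lost without D7 or without D9, and the MX2 call lay close to the threshold. D7 and D9 were the highest Duroc boars for both genes, at 28.7 and 25.1 CPM of OAS2 and 5.19 and 4.73 of MX2. OAS2 kept a log2 fold change of 0.57 without D7 and 0.62 without D9, with quasi-likelihood adjusted p-values of 0.0529 and 0.0515, and was called without any other single boar. MX2 was lost when any of 14 boars was left out (D1, D3, D4, D7, D9, L1, L2, L4, L5, L7, L8, L9, L10 or L12), at an adjusted p of 0.0508 to 0.148 and a fold change of 0.78 or more.

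CXCL10 averaged 0.90 ± 0.73 CPM in Landrace and 3.52 ± 6.53 in Duroc, a log2 fold change of 1.95 ± 0.57 over genes with at least 1 count (quasi-likelihood adjusted p = 0.0667, exact permutation p = 0.0625). Most of this came with D7, since without it the value was 0.39 (adjusted p = 0.828). The likelihood ratio test gave an adjusted p of 0.0156 with all boars, and the call was also made without L13 or without D6. TNFSF10 differed least, at 4.63 ± 3.09 and 4.70 ± 1.64 CPM, a log2 fold change of 0.02 ± 0.31 that took either sign as single boars were left out. For IFIT1, MX1 and ISG15 it was 0.75 ± 0.41, 0.41 ± 0.33 and 1.21 ± 0.56 (adjusted p = 0.521, 0.813 and 0.346). No gene had breeds that did not overlap, beside 0.28% of genes tested.

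**Figure D4:**
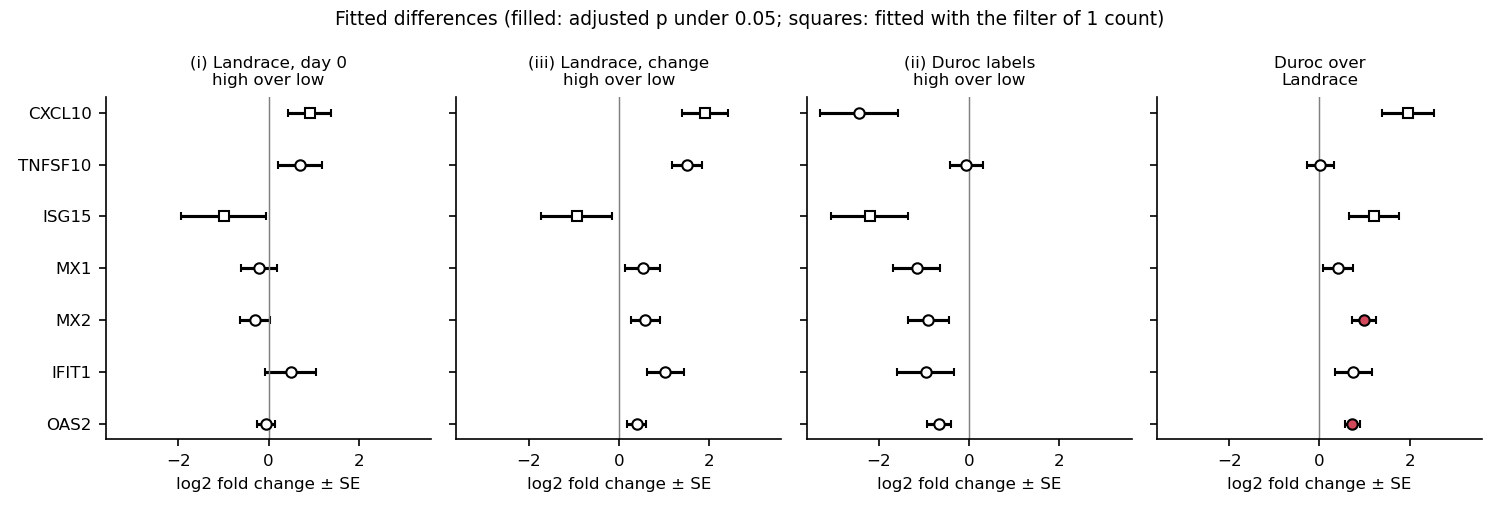
Log2 fold changes with their SE for the 7 genes in contrasts (i), (iii) and (ii) and between breeds, in 4 panels with the same horizontal scale. Filled circles mark an adjusted p under 0.05 (OAS2 and MX2 in Duroc over Landrace), and squares mark genes below the filter on low counts, fitted with all genes that had at least 1 count. Within contrast (iii) CXCL10 and TNFSF10 lie farthest above 0, at 1.90 and 1.51.

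In the pathway lists the breed comparison called a single gene. This was TLR3, the endosomal receptor for double-stranded RNA, 1 of 9 sensing genes, at 1.51 ± 0.56 CPM in Landrace and 4.81 ± 2.06 in Duroc (log2 fold change 1.66 ± 0.25, quasi-likelihood adjusted p = 3.494e-04). Duroc boars other than D5 lay between 3.27 and 7.64 CPM, above the highest Landrace boar at 2.76, and D5 had 1.31 CPM. D7, the highest Duroc boar for all 7 genes, had 3.27 CPM of TLR3, near the lower end of its breed. TLR3 was called without any single boar.

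None of 12 signalling, 19 other stimulated, 11 interferon gamma and antigen presentation and 10 death pathway genes was called between breeds. The smallest p in the first 3 of these lists belonged to IFNGR2 (-0.31 ± 0.15), SP110 (-0.51 ± 0.18) and CXCL9 (1.45 ± 0.44), with adjusted p-values of 0.445, 0.159 and 0.0782. Of the cell markers, GATA4 rose, from 13.9 ± 4.04 to 23.3 ± 4.42 CPM (log2 fold change 0.74 ± 0.16, quasi-likelihood adjusted p = 0.00764), 1 of 5 Sertoli markers. The Sertoli sum was 181 to 491 CPM in Landrace and 192 to 314 in Duroc, the leukocyte sum 9.83 to 17.2 and 8.07 to 17.0, and the macrophage sum 67.3 to 226 and 63.5 to 130. Breed cannot be told apart from anything else that differed between the collections of the boars.

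The difference of the day 0 contrast between breeds was tested over the 8 Landrace boars of contrast (i) and the 8 Duroc boars. It was called for 0 of 12920 genes (0%) by the quasi-likelihood test, with 1946 at an unadjusted p under 0.05, for 3 in the likelihood ratio test and for 6 in DESeq2. For CXCL10 the difference, Duroc minus Landrace, was -3.34 ± 1.13 (unadjusted p = 0.00881, adjusted p = 0.329) and went to -0.34 without D7. For the other members it ran from -1.49 for IFIT1 to -0.63 for MX2, at adjusted p-values of 0.332 to 0.671.

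Within each breed most pairs of the 7 genes had a positive correlation. How often pairs of other genes do so was not tested. In Landrace, 19 of 21 pairs of the 7 genes had a positive Pearson's r on log2 CPM, with a median of 0.60. Of the 21 pairs, 9 had an adjusted p under 0.05 for r (permutation tests, Benjamini-Hochberg over 42 pairs in both breeds), and 10 for Spearman's rho. The strongest pair was TNFSF10 with IFIT1, with r = 0.85 and Spearman's rho = 0.85 (n = 13, permutation p = 9e-05 and 4.4e-04, adjusted p = 0.0026 for r). It kept r = 0.70 without the 2 boars farthest from the median of TNFSF10.

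CXCL10 with TNFSF10 in Landrace had r = 0.80 and rho = 0.75 (n = 13, permutation p = 8.1e-04 and 0.00441, adjusted p = 0.0106 for r), and r = 0.83 without the 2 farthest boars. MX1 with MX2 and MX1 with IFIT1 both had r = 0.79 (rho = 0.69 and 0.80, permutation adjusted p = 0.0106 and 0.0114 for r), and 0.72 and 0.67 without those boars. ISG15 stood outside this pattern, with r between -0.22 and 0.36 to the other 6 genes, at counts of 9 or fewer.

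In Duroc all 21 pairs had a positive r, with a median of 0.76. By exact permutation (n = 8), 10 had an adjusted p under 0.05 for r, but only 3 for rho. The median r fell to 0.40 without the 2 boars farthest from the median of the gene named first, and 16 pairs kept a positive r. D7 was 1 of the 2 in every pair. CXCL10 with IFIT1 was the strongest pair, with r = 0.96 and rho = 0.98 (exact permutation p = 1.24e-04 and 3.97e-04, adjusted p = 0.0026 for r), and kept r = 0.95 without those boars. CXCL10 with TNFSF10 had r = 0.88 and rho = 0.74 (exact permutation p = 0.00553 and 0.0458, adjusted p = 0.0211 for r and 0.113 for rho), and r = 0.76 without them. CXCL10 with MX1 went from 0.79 to 0.40 and CXCL10 with ISG15 from 0.87 to 0.41, and r without those boars was not tested.

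**Figure D5:**
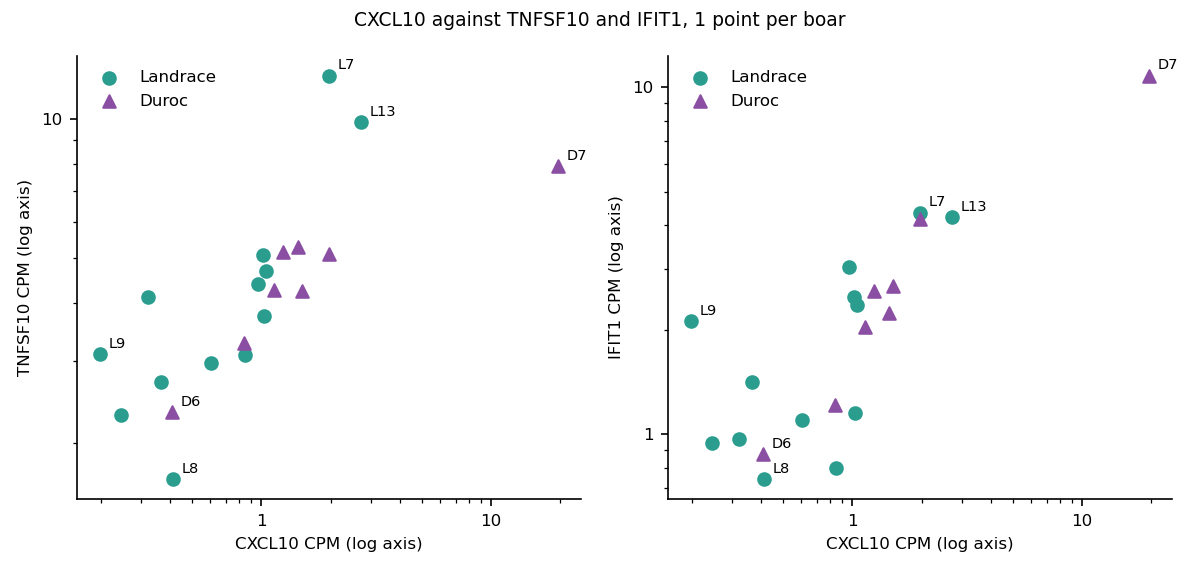
CPM of CXCL10 against TNFSF10 and against IFIT1 on log axes, with 1 point per boar (circles Landrace, triangles Duroc). Within each breed both partners are higher where CXCL10 is higher (r = 0.80 and 0.65 in Landrace and 0.88 and 0.96 in Duroc), and D7 lies far to the right of the other boars.

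The genes most like the ligands over all 21 boars, by Pearson's r of log2 CPM centred on each breed's mean, included antigen presentation genes. For TNFSF10 they included HLA-DRA (the identifier table's name for the MHC class II alpha chain row, r = 0.88), B2M (0.87), ENSSSCG00000000657, which has no symbol (0.86), and the activin receptor ACVR1 (0.85). For CXCL10 they were IFIT1 (0.80), B2M (0.80), ENSSSCG00000009240 without a symbol (0.80), ERAP2, an aminopeptidase that trims peptides for MHC class I (0.79), and a further row without a symbol (0.78). Without D7 the values for CXCL10 were 0.71 for IFIT1, 0.88 for B2M, 0.65 for ENSSSCG00000009240, 0.77 for ERAP2 and 0.69 for the further row. These are descriptions over 12835 genes for CXCL10 and 12834 for TNFSF10, in libraries that also share depth and cell makeup.

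Among the members, TNFSF10 ranked 7 of 12835 in likeness to CXCL10 (r = 0.77), MX1 ranked 10 (0.71), OAS2 19 (0.69) and MX2 265 (0.52). Without D7 r was 0.82 for TNFSF10, 0.53 for MX1, 0.51 for OAS2 and 0.33 for MX2. In likeness to TNFSF10, IFIT1 ranked 7 (0.84), while MX1 ranked 205 (0.65), OAS2 824 (0.53) and MX2 1154 (0.47).

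The spread between boars set the members apart from each other. In Landrace the coefficient of variation of CPM was 80.5% for CXCL10, 66.8% for TNFSF10 and 63.8% for IFIT1. This was above that of 97.9%, 96.7% and 92.9% of tested genes with a mean within a factor of 2 of theirs. CXCL10 itself failed the filter over all libraries and is not among those tested genes. The filter may leave out variable genes of its level, so its 97.9% may be too high. The coefficient was 43.1% for MX1, 30.6% for MX2 and 19.1% for OAS2, above 60.4%, 25.4% and 23.8% of such genes. In Duroc it was 185% for CXCL10, but 41.0% without D7, and 95.7% for IFIT1, but 48.0% without D7. For TNFSF10 it was 34.9% in Duroc.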

How the data were processed

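The authors made stranded mRNA libraries from testis tissue, trimmed the reads with Trimmomatic 0.36, mapped them to Sscrofa11.1 with STAR and deposited raw counts per Ensembl gene from HTSeq, run with strand, as 1 file per boar. The 5 HTSeq summary rows were left out. Reads on no feature were 21.5% to 30.2% of the reads summed over all rows.

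Counts were analysed in edgeR 4.0.16 (R 4.3.3) by the quasi-likelihood test with TMM (trimmed mean of M-values) scaling and Benjamini-Hochberg adjustment over all tested genes, at a threshold of 0.05, after removal of genes below 1 CPM (before TMM scaling) in over 50% of the libraries compared. The authors used edgeR 3.12.1 with a likelihood ratio test, run here as an alternative with DESeq2 1.42.0, relative log expression, other filters, a hyperactivity covariate, and each boar left out. Standard errors came from the fold change and its test statistic. Single genes were also compared by two-sided exact permutation of CPM. Pairs used log2 CPM with a prior count of 2 and 100000 permutations in Landrace or all permutations in Duroc (numpy 2.4.6). Fits were tested on simulated data. Replicates are different boars.

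The members and gene lists were chosen with earlier results of these data known. Named genes are the members, in each list those called (at most 4) or else the smallest p, and the 5 genes most like each ligand. No gene sequences are printed. Read depth is given in the report and limits low-count genes such as ISG15. Results for some genes the naming rule selects are not reported here.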

Additional observations from a re-analysis of the deposited data

Results flagged for a closer look

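Of 35 groups of 4 to 8 boars examined for a sample far from the rest in CPM (7 genes in 5 groups), 4 held one. The nominal chance rate of 1 in 20, or 1.75, cannot be set against this count. Some groups share boars, and D7 was picked out from these same values. All 4 were D7 among the 8 Duroc boars, and since the genes vary together within a boar these are not separate observations. CXCL10 stood at 19.6 CPM in D7 against 0.408 to 1.97 in the other 7 boars, ISG15 at 0.606 CPM against 0.0192 to 0.141, MX1 at 4.42 CPM against 0.613 to 2.32 and IFIT1 at 10.8 CPM against 0.875 to 4.18. The same boar was the highest for TNFSF10, MX2 and OAS2 without standing as far from the next boar.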

How the results depend on the processing

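Contrast (i) called 2682 genes as reported and 1 to 3752 with single boars left out, the lowest without L6, with 703 without L3, 1187 without L8, 1589 without L4 and 1624 without L1. Contrast (iii) called 0 genes as reported, 64 by the likelihood ratio test, 116 by DESeq2, 1 with genes of at least 1 count, 1 with filterByExpr, 2 without L2 and L7, and 0 to 1 with single boars left out. Contrast (ii) called 0 to 2 genes with single boars left out. The breed comparison called 355 genes, 554 with genes of at least 1 count and 537 by DESeq2, and 258 to 471 with single boars left out. The difference between breeds was called for 0 genes, 3 by the likelihood ratio test, 6 by DESeq2, and 0 to 1 with single boars left out.

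Of 789 alternative values for single genes, 705 kept their direction and their side of the threshold, 58 lost a call, 6 gained one and 20 turned sign, none of the last called. In contrast (i) OAS2 went to 0.00461 with genes of at least 1 count and ran from -0.158 to 0.0778 with single boars left out, MX1 from -0.541 to 0.0204, TNFSF10 from -0.0808 to 0.996 and IFIT1 from -0.146 to 1.01. In contrast (ii) CXCL10 ran from -2.99 to 0.483, TNFSF10 from -0.393 to 0.491 and IFIT1 from -1.46 to 0.47. Between breeds TNFSF10 ran from -0.125 to 0.241, and in the difference between breeds IFIT1 ran from -1.99 to 0.0177. DESeq2 gave 0.351 for CXCL10 between breeds (adjusted p = 0.907), and the cause was not tested. The number of pairs called by Pearson's r was 9 in Landrace and 10 in Duroc, and 11 in each without TMM. By Spearman's rho it was 10 in Landrace and 3 in Duroc. No paired analysis was possible because the boars of the groups compared are different animals and share no pairing.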
